A study of Rattus norvegicus with 63 samples.

Results

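The ventral tegmental area of rats with long access to cocaine was compared with that of rats with short access. The rats took cocaine by intravenous self-administration at 0.25 mg per injection, for 1 h per day with short access and for 6 h per day with long access, and drug-naive controls had 0 h. The study's design text gives 8 rats for each access group, and neither it nor the labels give strain, age or the number of sessions. The 6 arrays labelled as ventral tegmental area with short or long access, 3 of each, were taken from 63 arrays of 6 brain regions, and the 3 arrays of this region from rats with no access were used for the estimate of the spread and as a baseline. Each array was an Affymetrix rat neurobiology array hybridised with biotinylated cRNA made from 1 to 5 µg of total RNA. The labels do not say whether an array holds RNA of 1 rat or of several, so that the p-values below measure the spread between arrays, which may be technical. Of 1263 probe sets other than controls, 722 had a mean signal of at least 100 over the 9 arrays and were tested, and 541 were below this level.

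The ventral tegmental area is a small midbrain nucleus whose dopamine neurons project to the nucleus accumbens, the prefrontal cortex and the amygdala, beside GABA and glutamate neurons. Cocaine blocks the dopamine transporter and so prolongs the action of dopamine released at the terminals and dendrites of these cells. Dopamine and most neuropeptides act through receptors coupled to heterotrimeric G proteins, which consist of an alpha subunit and a beta-gamma pair and pass the signal on to enzymes and ion channels.

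The region label of the arrays was checked against the other 5 regions, none of which is in the midbrain. Of the 722 probe sets, 499 (69.1%) differed between the ventral tegmental area and the mean of the other regions (limma, Benjamini-Hochberg adjusted p under 0.05), of which 282 (39.1%) were higher and 217 (30.1%) lower in the ventral tegmental area. Probe sets entered these tests by their signal in the ventral tegmental area, so that the counts are no measure of all 1263. The log2 signal of Th, tyrosine hydroxylase, the rate-limiting enzyme of dopamine synthesis, was 13.47 to 13.75 on the 9 arrays, and its means in the other regions were 6.21 to 9.30, the highest in the lateral hypothalamus. Slc6a3, the dopamine transporter, was at 11.86 to 12.19, against means of 5.33 to 5.71. Slc18a2, the vesicular monoamine transporter, was at 10.58 to 11.07, against means of 5.00 to 6.74, and Ddc, which converts L-DOPA to dopamine, at 11.90 to 12.26, against means of 5.83 to 9.11. Many of the low values lie at the floor of 5 on the log2 scale, under which signals were raised to it, and no fold is given for that reason. The defining markers of dopamine neurons were thus present on all arrays of the region. These values cannot tell the ventral tegmental area from other midbrain tissue with dopamine neurons.

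The access groups also differed in control probe sets of the array. The mean log2 signal of 9 bacterial spike-in control probe sets lay at 11.40 to 11.68 with no access, 11.85 to 12.01 with short and 12.25 to 12.44 with long access. That of 6 antisense controls lay at 7.07 to 7.13, 7.32 to 7.49 and 7.82 to 8.16. In neither measure did the groups overlap, and each long minus short difference, 0.37 and 0.63, had the smallest p that an exact permutation test of 3 against 3 arrays allows, 0.1 (2-sided). In the other 5 regions the spike-in difference lay between -0.22 and 0.32 and the antisense difference between -0.09 and 0.28. A fit with the spike-in level as covariate, added after seeing the data, called 0 of the 722 probe sets in limma, with 72 at an unadjusted p under 0.05. All 19 probe sets called below kept their direction in it, at a median 0.945 times the difference and 1.91 times the SE. With the antisense level as a covariate, 4 passed, 1 of them among the 19, and 17 kept their direction. Access group and these controls cannot be told apart with 3 arrays a group, and each result below stands beside them. The log2 ratio of 3' to 5' actin signal, a measure of RNA integrity, was 0.17 to 0.38 with short and 0.17 to 0.21 with long access (difference -0.06, exact permutation p = 0.4). The same ratio for Gapdh was 0.24 to 0.45 and 0.34 to 0.63 (difference 0.19, exact permutation p = 0.2). With no access the actin ratio was -0.04 to 0.01, below every short and long access array, and the Gapdh ratio was 0.30 to 0.32, so that the actin ratio also moves with each comparison against no access below. With the actin ratio as a covariate, 18 probe sets passed between long and short access, 14 of them among the 19.

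**Figure D1:**
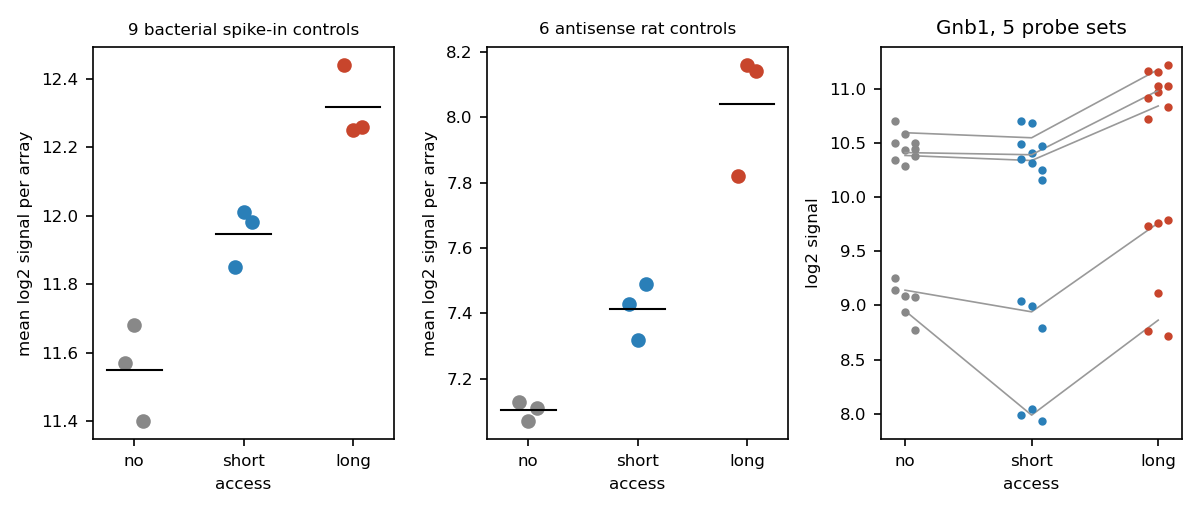
Mean log2 signal per array of 9 bacterial spike-in controls (left) and 6 antisense rat controls (middle), and log2 signal of the 5 Gnb1 probe sets (right), in the ventral tegmental area by access group. Points are arrays, 3 per group, black bars are group means and grey lines join the group means of 1 Gnb1 probe set; both controls were lowest with no access and highest with long access, without overlap, while the lowest Gnb1 line lay at 8.95 with no, 7.99 with short and 8.86 with long access. The vertical axes do not start at 0.

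Long access differed from short access at 19 of 722 probe sets (2.63%), of which 13 were higher (1.80%) and 6 lower (0.831%). They stand for 7 genes that rose, Gnb1, Hspb1, Igf2, Tac1, Pik3r1, Capns1 and S100b, and 5 that fell, Nefl, Nefm, Vdac1, Igfbp5 and Snap25, and 3 of the probe sets have no gene symbol. Of the 19, 10 differed by at least 1.5-fold. The median difference of all 722 probe sets was 0.004 on the log2 scale, with 367 (50.8%) above 0, and its median size was 0.15. In bulk tissue, fewer cells of a type and less RNA per cell cannot be told apart. Of the 19, 15 carry a suffix of s, f, g, r, i or x in the probe set name, as do 336 of the 722 tested. By some of these suffixes, not all, the manufacturer marks probe sets that may match more than 1 sequence. Over the 386 probe sets without such a suffix, 1 passed, which was probe set 1 of Gnb1 as numbered below. The called probe sets of Pik3r1, Nefm and S100b also carry none, and did not pass in that fit. Without the third short access array 8 of the 722 passed, without the third long access array 10, without the second long access array 12 and without the second short access array 13. In 1 fit of all 63 arrays, which uses the spread of all regions, 0 passed by limma and 32 had an unadjusted p under 0.05.

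**Figure D2:**
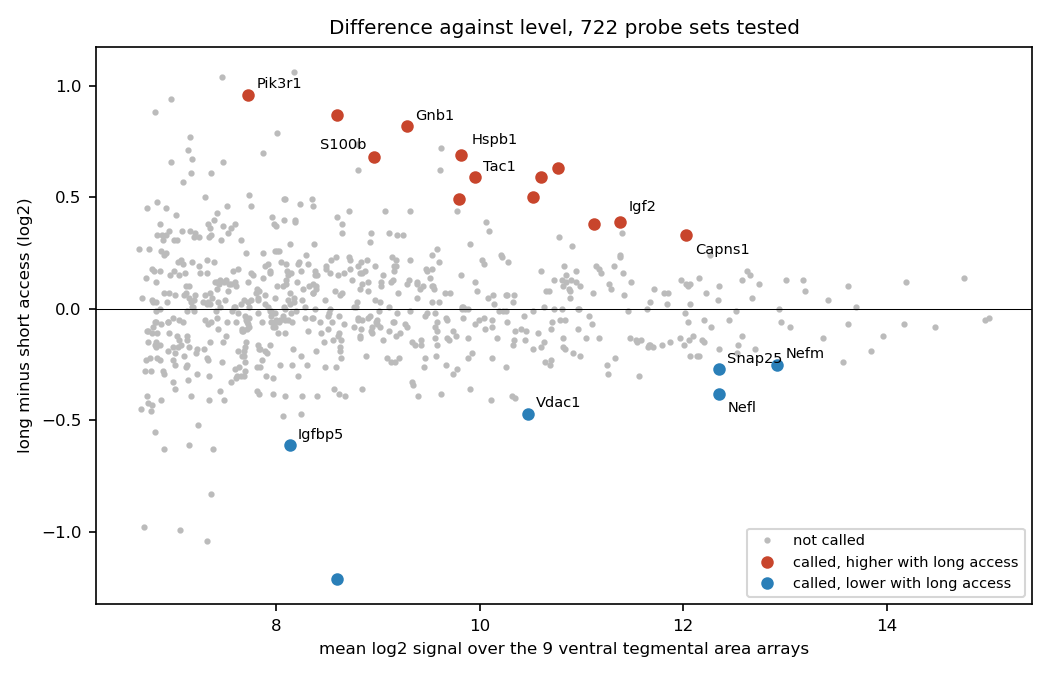
Difference between long and short access (log2, vertical axis) against the mean log2 signal over the 9 ventral tegmental area arrays (horizontal axis) for the 722 probe sets tested. Red points are the 13 probe sets called higher and blue points the 6 called lower with long access, and each named gene is labelled once; the called differences lie between -1.21 and 0.96, and several grey points of low signal lie as far from 0 without being called.

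Gnb1 encodes the beta-1 subunit of heterotrimeric G proteins, the partner of gamma subunits in the complex that dopamine, opioid, GABA-B and muscarinic receptors activate. The array holds 5 probe sets for it, all 5 were tested and all 5 rose with long access, by 0.50 to 0.87 on the log2 scale. The 5 are numbered here by the size of the difference, from 1, the smallest, to 5. Its promoter is shown because it is the gene with the most probe sets called. The 250 bases before the RefSeq start, from the table of build GRCr8 at chr5:171378113-171378362 on the plus strand, have a match to the TATA box letters TATAAA on the opposite strand, in capitals, 233 to 228 bases upstream.

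Gnb1: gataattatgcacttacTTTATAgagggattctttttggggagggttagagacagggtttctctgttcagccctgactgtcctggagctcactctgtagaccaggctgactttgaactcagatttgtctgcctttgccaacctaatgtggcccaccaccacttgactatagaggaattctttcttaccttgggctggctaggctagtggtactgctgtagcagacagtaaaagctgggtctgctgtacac

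Probe set 4 of Gnb1 had log2 signals of 9.04, 8.99 and 8.79 with short access and 9.73, 9.76 and 9.79 with long access. It was 1.77-fold higher with long access (log2 difference 0.82 ± 0.10 (SE), n = 3 against 3, limma adjusted p = 0.00203). The no access arrays, at 9.25, 9.09 and 9.08, lay between the groups, and no array of 1 group reached another. Probe set 3 of Gnb1 had signals of 10.49, 10.68 and 10.47 with short and of 11.16, 11.15 and 11.22 with long access, a rise of 0.63 ± 0.08 (limma adjusted p = 0.00203). Here the no access arrays, at 10.70, 10.58 and 10.50, overlapped with short access.

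Probe set 5 of Gnb1 showed the largest difference by another course. Its signals were 7.99, 8.04 and 7.93 with short access and 8.76, 9.11 and 8.72 with long access, 1.83-fold higher (0.87 ± 0.14, limma adjusted p = 0.0082), but the no access arrays were at 9.14, 8.94 and 8.77. It was thus the short access arrays that stood apart, lower than no access by 0.96 ± 0.14 (limma adjusted p = 0.00874), and long minus no access was -0.08 (limma adjusted p = 0.853). Probe sets 1 and 2 of Gnb1 rose by 0.50 ± 0.08 and 0.59 ± 0.12 (limma adjusted p = 0.0082 and 0.018). In probe sets 1 to 4 long access was also above no access, by 0.46, 0.58, 0.59 and 0.62 (limma adjusted p = 0.0126, 0.0206, 0.00294 and 0.00718), and short minus no access was -0.04, -0.02, -0.05 and -0.20, none past the threshold. These comparisons share arrays. Probe sets 1, 3, 4 and 5 passed in all 9 fits that left out 1 array, and probe set 2 in 5 of them, with its highest adjusted p, 0.0789 (limma), without the third long access array.

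Hspb1 encodes a small heat shock protein, a chaperone that binds unfolded proteins and actin filaments. Its log2 signals were 9.45, 9.51 and 9.23 with short access and 10.26, 9.98 and 10.02 with long access, without overlap, and it rose 1.61-fold (0.69 ± 0.11, limma adjusted p = 0.0082). With no access it was at 10.06, 9.83 and 10.01, among those of long access. Short access was lower than no access by 0.57 ± 0.11 (limma adjusted p = 0.0352), and long minus no access was 0.12 (limma adjusted p = 0.662). A second Hspb1 probe set differed by 0.62 ± 0.18 (limma adjusted p = 0.096) and the third by -0.04 (limma adjusted p = 0.945). The call held in all 9 fits without 1 array.

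The Hspb1 promoter is shown because heat shock genes are known for binding sites of heat shock factor. The 250 bases before its RefSeq start, at chr12:26432302-26432551 on the minus strand of GRCr8, hold the heat shock element letters GAANNTTC at 129 to 122 and at 109 to 102 bases upstream, and the GC box letters GGGCGG or their reverse complement at 214 to 209, 87 to 82 and 45 to 40. Searched on both strands in windows of the same length, the heat shock letters are in 7.23% of 33469 rat promoters, the GC box letters in 30.5%, the TATA box letters in 12.9% and the cAMP response element TGACGTCA in 1.59%. Capitals mark the matches in these lines, which include the promoter of Tac1, the neuropeptide gene described next, at chr4:36645333-36645582 on the plus strand, where none of the 4 motifs was found. A match describes letters, not a bound site.

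Hspb1: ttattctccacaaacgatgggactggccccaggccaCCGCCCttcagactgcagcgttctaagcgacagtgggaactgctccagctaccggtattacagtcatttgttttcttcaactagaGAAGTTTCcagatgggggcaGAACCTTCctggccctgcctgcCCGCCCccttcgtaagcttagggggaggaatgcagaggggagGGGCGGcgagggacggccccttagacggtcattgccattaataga
Tac1: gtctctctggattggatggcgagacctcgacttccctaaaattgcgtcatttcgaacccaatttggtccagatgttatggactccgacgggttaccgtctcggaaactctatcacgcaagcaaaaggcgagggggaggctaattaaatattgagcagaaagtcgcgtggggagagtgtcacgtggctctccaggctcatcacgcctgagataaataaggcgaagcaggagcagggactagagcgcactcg

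Tac1 encodes the precursor of substance P and neurokinin A, tachykinins that excite midbrain dopamine neurons. Its log2 signals were 9.51, 9.78 and 9.54 with short access and 10.32, 10.24 and 10.05 with long access, a 1.51-fold rise (0.59 ± 0.11, limma adjusted p = 0.0139). The no access arrays were at 9.90, 10.21 and 10.03, within reach of long access and above every short access array. Neither long minus no access, 0.16 (limma adjusted p = 0.542), nor short minus no access, -0.43 (limma adjusted p = 0.155), passed. The other Tac1 probe set differed by 0.20 ± 0.16 (limma adjusted p = 0.606), and the call held in 6 of the 9 fits without 1 array, with the highest adjusted p, 0.0612 (limma), without the second long access array.

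Pik3r1, the p85-alpha regulatory subunit of phosphoinositide 3-kinase, had the largest difference of the genes that rose. Its signals were 6.99, 7.50 and 6.97 with short access and 8.36, 7.93 and 8.07 with long access, 1.95-fold higher (0.96 ± 0.19, limma adjusted p = 0.0145). With no access it was at 7.87, 7.84 and 7.93, again near the long access arrays, and short minus no access was -0.72 (limma adjusted p = 0.155). The call held in 6 of 9 fits without 1 array, with the highest adjusted p, 0.0605 (limma), without the first long access array. Its other probe set was below the signal tested.

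Of the insulin-like growth factor genes, Igf2 rose and Igfbp5 fell, each by 1 probe set. Igf1, Igf1r, Igfbp2, Igfbp3 and Igfbp6, by their brightest probe sets, differed by -0.18, -0.17, -0.14, -0.22 and 0.22 (limma adjusted p = 0.717, 0.732, 0.503, 0.686 and 0.548). Igf2, a growth factor made in brain mainly by choroid plexus and meninges, had signals of 11.25, 11.41 and 11.28 with short and 11.80, 11.67 and 11.65 with long access, a 1.31-fold rise (0.39 ± 0.07, limma adjusted p = 0.0133). It was higher with long than with no access too, by 0.59 ± 0.07 (limma adjusted p = 0.000926), the no access arrays being at 11.13, 11.10 and 11.13. The other 3 tested Igf2 probe sets differed by 0.25, -0.26 and -0.11 (limma adjusted p = 0.559, 0.6 and 0.92), and 2 were below the signal tested. Igfbp5, a secreted protein that binds the insulin-like growth factors, fell 1.53-fold (-0.61 ± 0.13, limma adjusted p = 0.0253), from 8.40, 8.31 and 8.28 with short to 7.63, 7.74 and 7.79 with long access. With no access it was at 8.28, 8.43 and 8.33, overlapping with short access, while a second Igfbp5 probe set differed by -0.01 (limma adjusted p = 0.987). Without 1 array, Igf2 passed in 8 of 9 fits, with an adjusted p of 0.0505 (limma) without the third short access array, and Igfbp5 in 2 of 9, with adjusted p from 0.0442 to 0.0816 (limma).

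S100b, a calcium-binding protein of astrocytes, had signals of 8.76, 8.85 and 8.81 with short and 9.16, 9.72 and 9.59 with long access (0.68 ± 0.15, limma adjusted p = 0.0256). Its second probe set, at 14.11 to 14.25 on all arrays of both groups, differed by -0.07 ± 0.06 (limma adjusted p = 0.66), so that the 2 probe sets of S100b did not show the same direction. The call held in 4 of 9 fits without 1 array, and was furthest from the threshold without the second long access array (0.57, limma adjusted p = 0.137), and with the antisense level as a covariate the difference was -0.07. Capns1, the small regulatory subunit of the calpain proteases, rose 1.25-fold (0.33 ± 0.07, limma adjusted p = 0.0244), from 11.97, 11.88 and 11.92 to 12.33, 12.17 and 12.25. Its other 3 probe sets differed by 0.10 to 0.13 and did not pass, and the call held in 5 of 9 fits without 1 array.

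Neurofilaments, the intermediate filaments of large axons, were among the genes that fell. Nefl, the light chain, had signals of 12.63, 12.57 and 12.47 with short and 12.20, 12.11 and 12.21 with long access, 1.30-fold lower (-0.38 ± 0.07, limma adjusted p = 0.0133). Nefm, the medium chain, had signals of 13.12, 13.07 and 13.12 with short and 12.80, 12.86 and 12.88 with long access, 1.19-fold lower (-0.25 ± 0.05, limma adjusted p = 0.0215). With no access Nefm was at 12.80, 12.81 and 12.81, among the long access arrays, and short access was higher than no access by 0.29 ± 0.05 (limma adjusted p = 0.0184). Nefl with no access, at 12.45, 12.25 and 12.28, lay between the other 2 groups.

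A second Nefl probe set and that of Nefh, the heavy chain, differed by -0.24 ± 0.06 and -0.21 ± 0.07 (limma adjusted p = 0.0804 and 0.174), with every long access array below every short access array. Such a lack of overlap, with long below short, was found at 47 of 722 probe sets (6.51%), and with long above short at 71 (9.83%). Both neurofilament genes that fell had a far higher signal here than in the other regions, Nefl by 2.61 and Nefm by 2.54. Without 1 array, Nefl passed in 8 of 9 fits and Nefm in 4 of 9, with their highest adjusted p at 0.0609 and 0.0902 (limma).

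Snap25, a SNARE protein that drives fusion of synaptic vesicles, fell 1.21-fold (-0.27 ± 0.06, limma adjusted p = 0.0296), from 12.43, 12.57 and 12.55 with short to 12.27, 12.22 and 12.25 with long access. The no access arrays, at 12.26, 12.32 and 12.31, overlapped with long access. Its other 3 probe sets differed by -0.13, -0.08 and -0.06 and did not pass, and the call held in 2 of 9 fits without 1 array, with adjusted p up to 0.121 (limma). Vdac1, the channel of the outer mitochondrial membrane, fell 1.38-fold (-0.47 ± 0.10, limma adjusted p = 0.018), from 10.58, 10.67 and 10.61 to 10.36, 10.00 and 10.10. For Vdac1 the no access arrays, at 10.71, 10.64 and 10.58, overlapped with short access, and long minus no access was -0.49 (limma adjusted p = 0.0156). The second Vdac1 probe set differed by -0.39 ± 0.12 (limma adjusted p = 0.119). The call held in 5 of 9 fits without 1 array, and with the antisense level as a covariate the difference was 0.06.

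The largest difference of the 19 belonged to a probe set with no gene symbol, rc_AA893870_g_at. Its signals were 9.39, 9.22 and 9.60 with short access and 7.88, 8.20 and 8.51 with long access, 2.31-fold lower (-1.21 ± 0.18, limma adjusted p = 0.00425). The no access arrays, at 8.42, 8.02 and 8.12, lay among those of long access, and short access was higher than no access by 1.22 ± 0.18 (limma adjusted p = 0.00874). The call held in all 9 fits without 1 array. The other 2 probe sets with no symbol, AF028784cds#1_s_at and M28648_s_at, rose by 0.38 ± 0.07 and 0.49 ± 0.09 (limma adjusted p = 0.0133 and 0.0139), and both were also higher with long than with no access, by 0.44 and 0.77 (limma adjusted p = 0.00718 and 0.000926).

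**Figure D3:**
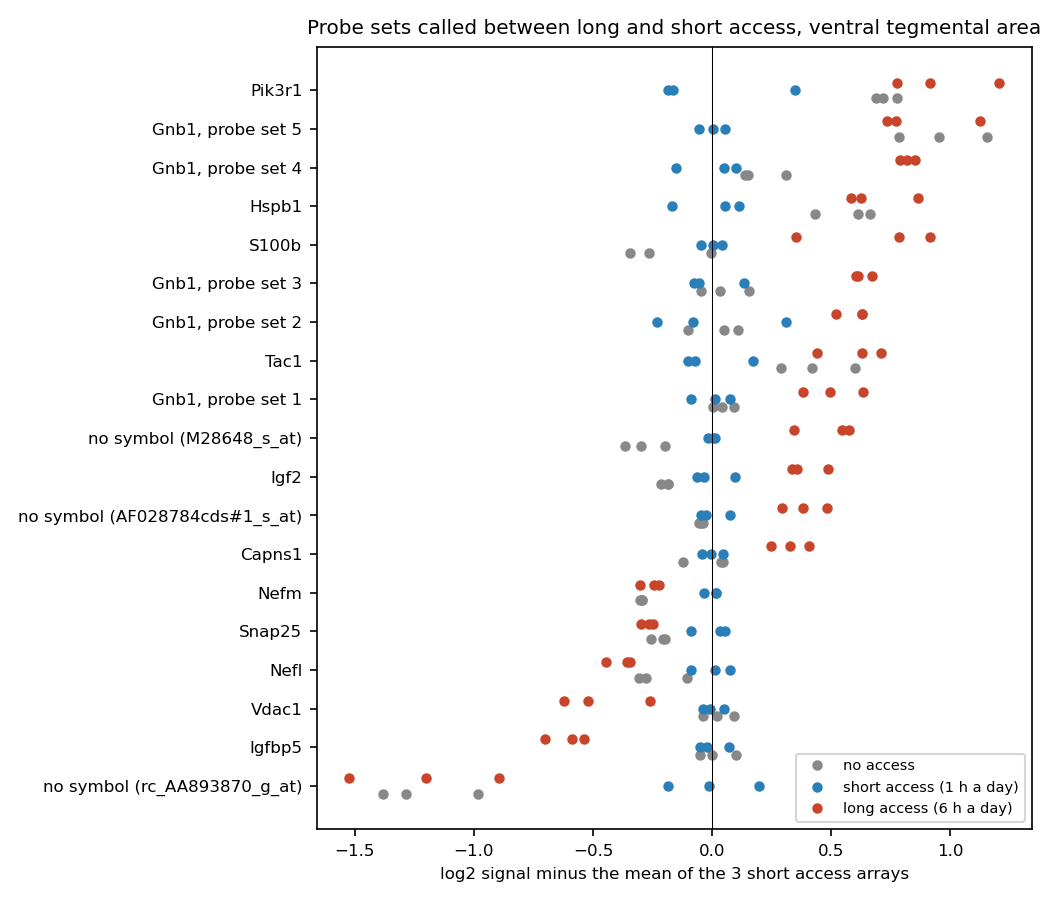
Log2 signal of each ventral tegmental area array minus the mean of the 3 short access arrays (horizontal axis) for the 19 probe sets called between long and short access. Each point is an array, 3 per group. Long and short access do not overlap at any of the 19, which were chosen by this difference on the same arrays. Such a lack of overlap was found at 118 of the 722 tested (16.3%), and it adds no support to the calls. The no access arrays lie with the long access arrays for Hspb1, Nefm and rc_AA893870_g_at and with the short access arrays for Vdac1 and Igfbp5.

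The baseline thus fell on different sides. Against no access, 21 of 722 probe sets (2.91%) passed with long access, 14 higher (1.94%) and 7 lower (0.970%), and 6 (0.831%) passed with short access, 3 in each direction (0.416%). Of those named above, long minus no access passed for Gnb1 probe sets 1 to 4, Igf2, Capns1, S100b, Vdac1, Igfbp5, AF028784cds#1_s_at and M28648_s_at, and short minus no access for Gnb1 probe set 5, Hspb1, Nefm and rc_AA893870_g_at. The 3 comparisons share arrays and are given side by side for that reason. C3, the central complement component, and Syt4, a vesicle synaptotagmin, came next among the lower genes, with differences of -0.83 ± 0.20 and -0.36 ± 0.09 (limma adjusted p = 0.0554 and 0.0635). A second probe set of each differed less, by -0.41 ± 0.25 and -0.17 ± 0.09 (limma adjusted p = 0.491 and 0.373).

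No gene of the dopamine neuron list passed. Of its 22 genes, 10 are on the array and 9 were tested, with Kcnj6, a potassium channel subunit opened by G protein beta-gamma, below the signal tested. The median difference of the 9 was 0.10, against 0.01 over all 454 genes tested with 1 probe set each, of which 5 rose and 4 fell. Th had signals of 13.64, 13.53 and 13.64 with short and 13.75, 13.61 and 13.74 with long access (0.10 ± 0.07, limma adjusted p = 0.529), and the groups overlapped. Slc6a3 had signals of 12.02, 12.10 and 11.86 with short and 12.19, 12.06 and 12.06 with long access (0.11 ± 0.08, limma adjusted p = 0.529), also with overlap.

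The genes of this list with the smallest p were Sncg, Chrna4 and Drd2. Sncg, gamma-synuclein, was at 10.54, 10.48 and 10.67 with short and 10.28, 10.20 and 10.03 with long access (-0.39 ± 0.10, limma adjusted p = 0.077). Chrna4, a nicotinic receptor subunit, was at 6.16, 6.86 and 6.75 with short and 7.28, 7.34 and 7.12 with long access (0.66 ± 0.22, limma adjusted p = 0.177). Drd2, the dopamine receptor that acts as autoreceptor on these cells, was at 6.94, 7.59 and 7.60 with short and 8.48, 7.72 and 8.02 with long access (0.70 ± 0.25, limma adjusted p = 0.226). In these 3 genes the short and long access arrays did not overlap, as at 118 of the 722 probe sets (16.3%). The others differed by -0.18 (Slc18a2), -0.26 (Chrnb3), 0.10 (Ddc) and 0.16 (Chrna6), with the arrays of all but Chrnb3 overlapping.

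**Figure D4:**
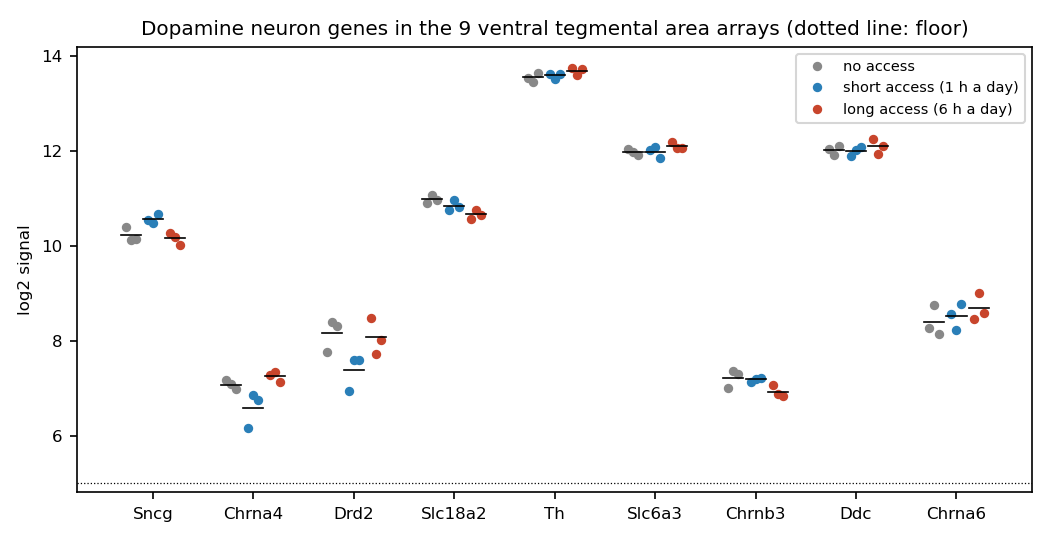
Log2 signal of 9 dopamine neuron genes in the ventral tegmental area arrays (vertical axis), ordered by p, smallest on the left. Points are arrays, 3 per access group, black bars are group means and the dotted line is the floor of 5; Th and Slc6a3 overlap between short and long access, while Sncg, Chrna4, Drd2 and Chrnb3 do not, as at 16.3% of all probe sets tested.

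The counts of the lists here and below stand beside those over all 454 genes by 1 probe set each, of which 5 rose and 4 fell. A single call in a list is not read as a result about that list. Among genes of second messenger signalling (G proteins, calcium, cyclic AMP, protein kinase C), 1 of 25 tested rose, Gnb1, and none fell, with a median of 0.02. Calm2, a calmodulin gene, differed by -0.18 and Itpr1, the intracellular calcium release channel, by 0.30 (limma adjusted p = 0.243 and 0.275). Of 7 kinase signalling genes 1 rose, Pik3r1, with a median of 0.04, and Map2k2, a kinase of the ERK cascade, differed by 0.32 ± 0.09 (limma adjusted p = 0.0926). Of 10 activity-induced genes none passed, with a median of -0.01, and Nr4a1 and Egr1, both induced rapidly by neuronal firing, differed by 0.35 and 0.13. Of 20 stress and apoptosis genes 1 rose, Hspb1, with a median of 0.04. Mt1, a metallothionein, differed there by 0.22 and Hspd1, a mitochondrial chaperonin, by -0.16.

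Transmitter receptors and transporters gave no calls. Their lists also hold related genes: Grid1 with AMPA and kainate receptors, Grina with NMDA receptors, Glud1 with glutamate transport and Glra2 with the GABA genes. For AMPA and kainate receptors none of 8 passed, with a median of 0.13, and Grik5, a kainate receptor subunit, differed by 0.44 ± 0.13 (limma adjusted p = 0.119). Gria2, the AMPA receptor subunit that limits calcium entry, differed by 0.38 and Grid1 by 0.94 ± 0.39 (limma adjusted p = 0.373 and 0.286). In both the groups overlapped, and 1 short access array of Grid1, at 5.17, lay near the floor of 5. For NMDA receptors none of 7 passed, with a median of 0.13, and Grin2c differed by 0.34. For metabotropic glutamate receptors and glutamate transport none of 6 passed, with a median of -0.16. For GABA synthesis, transport and receptors none of 16 passed, with a median of 0.10, and the receptor subunit Gabra3 differed by -0.63 and the transporter Slc6a13 by 0.57. None passed of 12 monoamine genes (median -0.03), where Maoa, which degrades monoamines, differed by -0.23, of 8 acetylcholine genes (0.04), of 8 peptide and cannabinoid receptor genes (-0.24) or of 7 adenosine and purine receptor genes (-0.01). Of 9 neuropeptide genes 1 rose, Tac1, with a median of 0.01, and Vgf, a secreted granule protein, differed by 0.44 ± 0.14 (limma adjusted p = 0.147).

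Ion channel genes gave no calls either, with medians of -0.06 over 22 potassium channel genes and 0.01 over the 19 genes of the sodium and calcium channel list. The latter also holds Clcn3 and Clcn4 of the chloride channel family and the sodium pump subunits Atp1b1 and Atp1b2. Of 17 synaptic vesicle genes 1 fell, Snap25, while the median was 0.07. Syp, synaptophysin, a vesicle membrane protein, went the other way without passing, from 11.26, 11.25 and 11.31 with short to 11.50, 11.55 and 11.49 with long access (0.24 ± 0.06, limma adjusted p = 0.077). Of 10 cytoskeletal genes 1 fell, Nefm, with a median of -0.05, Nefl being counted there by its brightest probe set, which did not pass. Map2, a dendritic microtubule protein, differed by 0.34 ± 0.09 (limma adjusted p = 0.0804).

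Of 13 adhesion and guidance genes none passed, with a median of 0.08, and Cspg5, a membrane proteoglycan, and Agrn, agrin, differed by 0.44 ± 0.12 and 0.72 ± 0.22 (limma adjusted p = 0.0804 and 0.119). Of 20 neurotrophic and growth factor genes 1 rose and 1 fell, Igf2 and Igfbp5, with a median of -0.06. The smallest adjusted p of limma was 0.303 in the acetylcholine list, 0.31 in the peptide receptor list and 0.362 among potassium channels. None of these medians was tested.

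Markers of other cell types that the dissection could hold showed the following. The mean log2 signal of 7 oligodendrocyte genes was 11.96 to 11.98 with short and 11.89 to 11.98 with long access, and that of 9 astrocyte genes 11.41 to 11.50 and 11.43 to 11.51. By their brightest probe sets none of these genes was called, although the dimmer probe set of S100b was, as given above. The 3 called probe sets with no symbol could not be counted in any list. For 5 microglia and immune genes the ranges were 8.67 to 8.77 and 8.46 to 8.63 (no access 8.34 to 8.63). They did not overlap, with an exact permutation p of 0.1, the smallest possible. The lists of AMPA and kainate receptors, metabotropic glutamate receptors, synaptic vesicles and kinase signalling had the same p. C3, not called, differed by -0.83, while B2m, Tspo, C4b and Il18 differed by -0.16, -0.11, 0.09 and 0.04. For 4 vessel genes they were 8.48 to 8.69 and 8.44 to 8.74. For 4 choroid plexus genes, of which Igf2 rose, they were 10.05 to 10.11 and 10.04 to 10.13, while Igfbp2 and Enpp2 of the same list differed by -0.14 and -0.13. Of 3 genes of the neighbouring hypothalamus none passed. The part of other cells in the results was not tested beyond these values.

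In the other regions, long against short access was called at 64 of 718 probe sets in the lateral hypothalamus (8.91%; 36 higher, 5.01%, and 28 lower, 3.90%) and at 15 of 736 in the septum (2.04%; 6 higher, 0.815%, and 9 lower, 1.22%). None passed in the nucleus accumbens, the amygdala or the medial prefrontal cortex by limma, where 71, 30 and 2 probe sets had an unadjusted p under 0.05. Of the 19 probe sets called in the ventral tegmental area, 5 were called in the septum. Gnb1 probe sets 3 and 5 rose there by 0.50 ± 0.08 and 0.75 ± 0.17 (limma adjusted p = 0.0222 and 0.0421), Hspb1 rose by 0.42 ± 0.08 and Nefm fell, with a difference of -0.39 ± 0.07 (limma adjusted p = 0.0269 for both). Igf2 was lower with long access in the septum (-0.35 ± 0.07, limma adjusted p = 0.0269), against its rise in the ventral tegmental area. In the lateral hypothalamus Gnb1 probe set 2 was lower with long access (-0.37 ± 0.09, limma adjusted p = 0.0275). The array controls moved in these regions too. In the septum the spike-in controls were higher with long access by 0.30, against 0.37 in the ventral tegmental area, and the antisense controls by 0.12. The lateral hypothalamus had differences of -0.22 and -0.09. The septum calls are thus not free of the control shift, and its part in them was not tested.

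A single fit of all regions asked whether the difference in the ventral tegmental area departed from the mean of the other 5. It did so at 1 of 722 probe sets (0.139%) and 36 had an unadjusted p under 0.05. The 1 was rc_AA893870_g_at, with a departure of -1.48 ± 0.31 (limma adjusted p = 0.012). In the other regions its short and long access means lay between 5.00 and 6.02, below the signal tested and close to the floor of 5, so that a fall there could not be measured and the departure does not show a difference in response. The probe set was not without signal outside the ventral tegmental area. Over the 12 lateral hypothalamus arrays, no access included, it had a mean of 6.38 and reached 8.42. Long minus short access was 0.76 there, which was not tested. With no floor 0 probe sets passed by limma and 36 had an unadjusted p under 0.05. Without the third short, the first long or the second long access array, 0 probe sets passed by limma, with 29, 24 and 31 at an unadjusted p under 0.05. The next were Igf1, another insulin-like growth factor, at -1.01 ± 0.29 (limma adjusted p = 0.343), Il4r, the interleukin 4 receptor, at 1.11 ± 0.33 (limma adjusted p = 0.343), and Capns1 at 0.40 ± 0.13 (limma adjusted p = 0.536). Such a departure is not the difference within the ventral tegmental area. There the brightest Igf1 probe set differed by -0.18 (limma adjusted p = 0.717), and no Igf1 probe set was called. For Gnb1, Hspb1, Tac1, Pik3r1 and the neurofilament genes, a departure from the other regions did not pass. The spread of all regions enters this fit, with a median residual SD from 0.17 in the septum to 0.37 in the medial prefrontal cortex. A departure that did not pass therefore does not show that the regions responded alike.

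**Figure D5:**
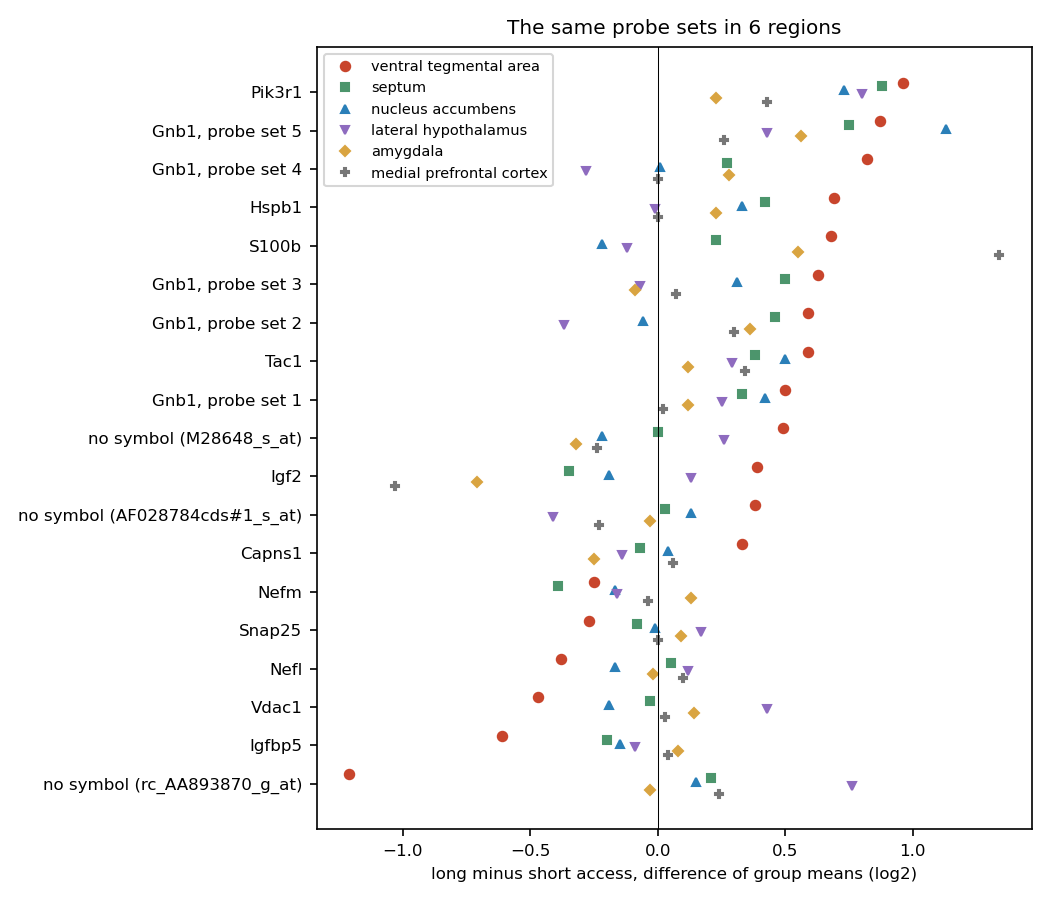
Difference of group means between long and short access (log2, horizontal axis) in 6 brain regions for the 19 probe sets called in the ventral tegmental area. Each symbol is the difference in 1 region, from 3 or 4 arrays per group, and the probe sets were chosen on the red circles. For Gnb1 probe set 1 the differences ran from 0.02 ± 0.48 (SE) in the medial prefrontal cortex to 0.50 ± 0.08 in the ventral tegmental area. Some symbols lie below the signal tested, among them those of Pik3r1 in the amygdala, the septum and the medial prefrontal cortex.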

How the data were processed

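Each probe set has 1 deposited linear intensity per array, and the submitters' processing notes name MAS5. Version, scaling and detection calls are not given in the sources used here. Intensities were scaled so that the 2% trimmed mean of the 1263 probe sets other than controls was 500 on each array, raised to 32 where lower, and log2 transformed. Signals near background understate a fold. Tests covered probe sets whose mean over the 9 ventral tegmental area arrays reached log2 of 100. limma 3.58.1 in R 4.3.3 (lmFit, eBayes with an intensity trend) fitted the 3 access groups of the region, with p-values adjusted by Benjamini-Hochberg over 722 probe sets and a threshold of 0.05. The same was done in each other region, and region differences came from 1 fit of 63 arrays in 18 groups. Scripts were tested on simulated data. Precision is limited by there being 3 arrays per group.

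The platform annotation gave 1 symbol for 1137 probe sets, several for 8 and none for 118, and Entrez identifiers linked 1132 to RefSeq genes (GRCr8), which changed 0 symbols. Of the 12 called genes with a symbol, 9 are in its promoter table.

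Named were the 15 largest rises and falls past the threshold with a symbol, each gene once by its smallest p, or the 8 of smallest p where fewer than 8 passed in a direction, all dopamine neuron genes, up to 3 genes of smallest p per list, and up to 5 for the difference between regions (the 3 of smallest p where none passed). The probe sets without a symbol and a few list members were named after their values were seen. In list counts a gene stands by its brightest probe set. The comparison and the gene lists were chosen with earlier results of these data known. Alternatives covered the scaling, floor, filter, intensity trend, array weights, marked probe sets, replicate block, arrays in the fit and each array left out. Covariates for array controls were added after seeing the data.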

Additional observations from a re-analysis of the deposited data

Results flagged for a closer look

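The probe set rc_AA893870_g_at, which has no gene symbol here, stood out in the comparison between regions. Its long minus short difference in the ventral tegmental area departed from the mean of the other 5 regions by -1.48 ± 0.31 (log2, limma adjusted p = 0.012). All 3 long access arrays of the ventral tegmental area were below all 3 short access arrays. In the other regions its short and long access means lay between 5.00 and 6.02, below the signal tested and close to the floor of 5, so that no fall could be measured there and a difference in response between regions is not shown. The lateral hypothalamus arrays, no access included, reached 8.42. With no floor the departure did not pass.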

How the results depend on the processing

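Against 19 probe sets called (13 higher, 6 lower), the count was 7 (5 and 2) with no intensity trend, 1 (1 and 0) without the marked probe sets, 10 (8 and 2) at 1.5-fold or more, 33 (17 and 16) with the replicate block, 15 (13 and 2) with only the 6 long and short access arrays, and 0 (0 and 0) with all 63 arrays in 1 limma fit, where 32 had an unadjusted p under 0.05 and the median residual SD was 0.29 against 0.19. It was 0 (0 and 0) with the spike-in and 4 (1 and 3) with the antisense covariate, which turned S100b to -0.07 and Vdac1 to 0.06. Leaving out 1 array gave 8 to 19 (5 to 14 higher, 1 to 6 lower): 8 without short access array 3, 10 without long access array 3, 12 without long access array 2 and 13 without short access array 2. All 19 kept their direction in these 9 fits, and 6 kept the call in all. The deposited scaling, quantile normalization, no floor, no filter, a filter at 200, array weights, adjustment over 18 contrasts and the actin covariate gave 14 to 22.

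For the difference from the other regions, the 1 call (0 higher, 1 lower) became 0 in limma with no floor or without the marked probe sets (36 and 15 at an unadjusted p under 0.05), 2 (0 and 2) with array weights and 2 (1 and 1) with the replicate block, and 0 to 3 (0 to 1 higher, 0 to 2 lower) without 1 array.

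Deviations of same-numbered arrays from their group means correlated with r = 0.11, 0.03 and 0.21 between long and short access, 0.31, 0.11 and 0.29 between long and no access, and -0.04, 0.06 and -0.03 between short and no access. Not every pair of long and short access was over 0.1, so that the number was not taken as a pairing. Of the long access arrays, 2 and 3 correlated best with the short access array of their own number (array 2 only weakly) and array 1 with short access array 2 (0.13). Among no access arrays, each long access array correlated best with that of its own number, and those of other numbers gave -0.30 to 0.04. Short access arrays 1 and 3 correlated best with no access arrays of another number (0.11 and 0.04). The labels name no block. All 19 were among the 33 of the replicate block. Dim probe sets limit what could be seen: 541 were not tested.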
